A study of Mus musculus with 8 samples.

Results

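The S100 genes encode small calcium-binding proteins, several of which act as alarmins when they leave a cell. The members described here are S100a8, S100a9, S100a4, S100a6, S100a10, S100a11 and S100a13, 7 of the 32285 annotated genes, and they were chosen by name. S100 genes of mammals lie largely in a single cluster, and each cell type uses its own set. S100A8 and S100A9 join into calprotectin, which fills the cytosol of neutrophils, binds zinc and calcium, and signals through TLR4 once released. S100A10 pairs with annexin A2 at the cell membrane, S100A11 binds annexin A1, and S100A4 and S100A6 are known from motile cells.

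Single-cell transcripts were available from CD45.2+ cells sorted from perfused mouse brains, in 8 libraries made with the 10x Genomics 5′ chemistry. The libraries held WT (C57BL/6J) or APP mice, the latter knock-ins whose App gene carries a humanized amyloid sequence with the Swedish, Arctic and Iberian mutations (App NL-G-F), all 16 weeks old by the labels. For each genotype there was 1 library of mice given water (control), 1 with acute colitis from 2% DSS in the drinking water for 7 days, 1 with chronic colitis from 3 cycles of 2% DSS for 5 days, and 1 with food allergy to ovalbumin. All mice received an antibody against CD45 in the blood before perfusion, which the counts do not show, and the mice of a library were pooled after labelling with hashtag antibodies that the labels do not tie to single mice. With 1 library per genotype and condition, treated libraries were set beside their control without a test, and tests were run between cell types, paired over libraries.

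Cells were called from all barcodes and gated on lists of 6 marker genes, none of them a member. Of 50120 cells, the gates placed between 52.4% and 65.0% of a library in 1 cell type, and 24 cell types had at least 10 cells in at least 4 libraries. A gate name such as mature neutrophils means cells that resemble the type by these markers. Levels are UMIs (unique molecular identifiers, which mark single captured transcripts) of a gene summed over the gated cells of a library and given per 1000000 UMIs of those cells (CPM), with no length term. The libraries held between 25614572 and 54618574 UMIs in cells, with a median between 2777 and 4130 UMIs per cell. Ptprc, which encodes CD45, was detected in 65.7% to 72.4% of the cells, and 118 cells passed the microglia gate. Pairs of libraries shared between 34 and 72 cell barcodes. Free RNA was measured in barcodes of under 100 UMIs.

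All members lie on chromosome 3 of GRCm38. S100a8 (ENSMUSG00000056054, 90668978 to 90670035, plus strand) and S100a9 (ENSMUSG00000056071, 90692632 to 90695721, minus strand) are neighbours, with 22596 bases and 0 annotated genes between them. S100a13 (90514435 to 90524581), S100a4 (90603771 to 90606045) and S100a6 (90612882 to 90624181) lie in the same cluster, all on the plus strand, and the stretch from S100a13 to S100a9 spans 181287 bases. S100a11 (93520488 to 93526287) and S100a10 (93555080 to 93564643) lie 2824766 bases farther along. The transcript model Gm42674 overlaps S100a4 on the same strand and was not counted in the files.

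Promoters are shown because members from the same cluster took different cell types. RefSeq (GRCm38.p6) gave the 250 bases before the start of 6 of the 7 members. The first lines below are the neutrophil pair, followed by members that were high and low in neutrophils. Capitals mark matches on either strand to 4 short motifs. TATAAA is the TATA box. GAGGAA is the core of sites bound by PU.1, a factor of myeloid cells. TTNNGNAA is the pattern of C/EBP factors, which drive granule genes. TGANTCA is the pattern of AP-1.
S100a8 (chr3:90668821-90669070, plus strand): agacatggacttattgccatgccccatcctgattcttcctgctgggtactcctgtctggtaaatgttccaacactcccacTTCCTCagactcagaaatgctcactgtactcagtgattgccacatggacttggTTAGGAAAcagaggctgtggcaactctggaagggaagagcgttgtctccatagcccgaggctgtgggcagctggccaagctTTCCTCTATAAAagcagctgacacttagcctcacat
S100a9 (chr3:90695722-90695971, minus strand): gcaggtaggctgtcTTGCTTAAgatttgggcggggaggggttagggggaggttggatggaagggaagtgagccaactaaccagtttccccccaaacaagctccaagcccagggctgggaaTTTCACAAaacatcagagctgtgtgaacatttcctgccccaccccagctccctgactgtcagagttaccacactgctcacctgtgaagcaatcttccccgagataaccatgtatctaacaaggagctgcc
S100a6 (chr3:90612644-90612893, plus strand): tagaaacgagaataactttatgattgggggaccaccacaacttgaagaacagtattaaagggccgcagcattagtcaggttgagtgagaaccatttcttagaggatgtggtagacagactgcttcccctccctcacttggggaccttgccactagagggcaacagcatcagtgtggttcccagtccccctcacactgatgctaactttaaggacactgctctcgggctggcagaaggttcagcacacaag
S100a11 (chr3:93520246-93520495, plus strand): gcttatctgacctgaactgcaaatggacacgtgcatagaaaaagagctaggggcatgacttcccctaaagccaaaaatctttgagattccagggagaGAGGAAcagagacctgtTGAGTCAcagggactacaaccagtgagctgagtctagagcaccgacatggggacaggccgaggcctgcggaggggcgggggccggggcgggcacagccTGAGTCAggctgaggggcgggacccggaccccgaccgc
S100a4 (chr3:90603520-90603769, plus strand): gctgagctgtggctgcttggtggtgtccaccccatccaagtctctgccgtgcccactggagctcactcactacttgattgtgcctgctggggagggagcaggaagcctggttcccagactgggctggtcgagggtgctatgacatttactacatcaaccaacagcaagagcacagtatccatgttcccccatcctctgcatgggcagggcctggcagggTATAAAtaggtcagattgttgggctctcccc

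In S100a8, TATAAA stood at bases -30 to -25 before the start, next to a GAGGAA match on the opposite strand at -36 to -31. A further GAGGAA match stood at -170 to -165 and a TTNNGNAA match at -117 to -110. In S100a9, TTNNGNAA matched at -236 to -229 and at -130 to -123, and TATAAA began at base 1 after the listed start. S100a4 held TATAAA at -31 to -26 and GAGGAA at 20 to 25 after the start, S100a11 held GAGGAA once and TGANTCA at -136 to -130 and -38 to -32, and S100a6 and S100a13 held none of the 4 motifs. No match overlapped another. Of 32851 RefSeq promoter windows of 300 bases, 13.6% held TATAAA, 28.3% GAGGAA, 40.7% TTNNGNAA and 7.81% TGANTCA, so these matches are a description of the letters.

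**Figure D1:**
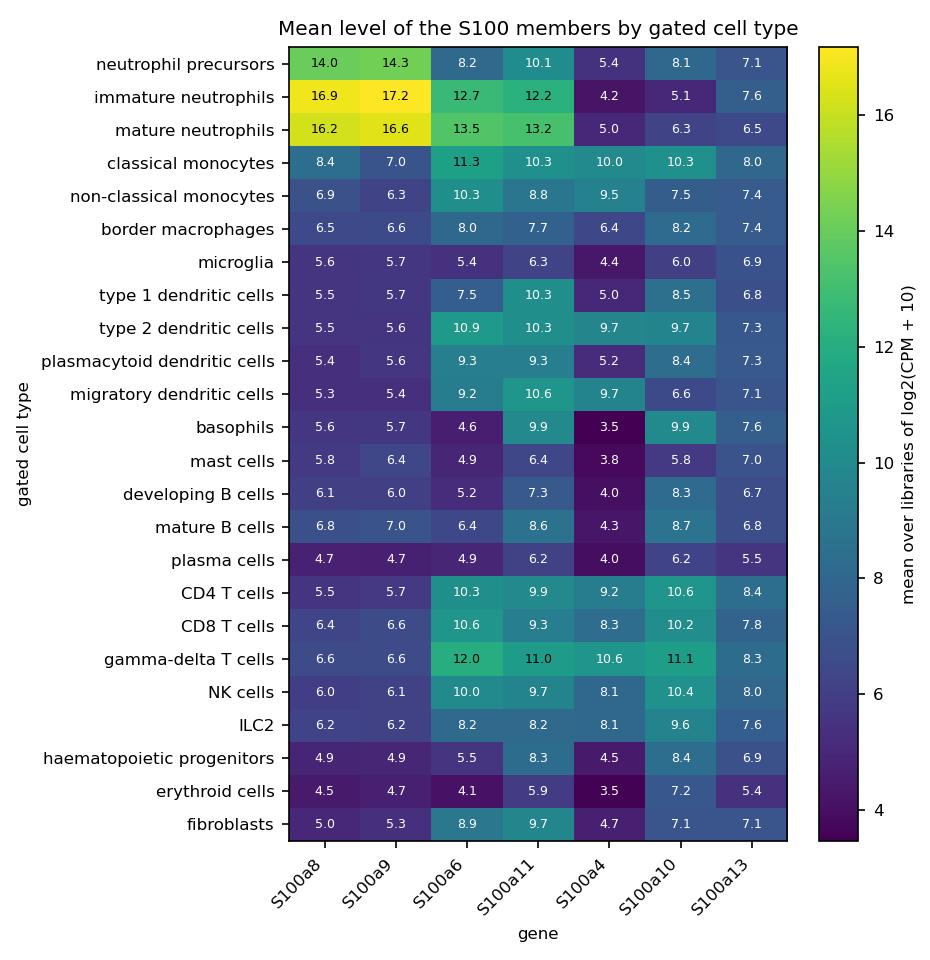
Mean over libraries of log2(CPM + 10) for the 7 members (columns) in 24 gated cell types (rows), from dark (low) to yellow (high), with the mean printed in each cell. S100a8 and S100a9 stand out in the 3 neutrophil gates, at up to 17.2, and the next type is classical monocytes, printed as 8.4 for S100a8, while S100a6 and S100a11 are high in neutrophils, monocytes and gamma-delta T cells alike.

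S100a8 and S100a9 were transcripts of the neutrophil gates. Neutrophils were a median of 10.8% of the cells of a library and held a median of 88.6% of its S100a8 UMIs (82.5% to 92.9% over libraries) and 89.1% of its S100a9 UMIs. A further 10.0% of S100a8 UMIs were in cells that passed several gates. In immature neutrophils, gated on secondary granule genes, S100a8 and S100a9 together made up between 17.3% and 31.1% of all UMIs of a library's gated cells, and in mature neutrophils between 9.96% and 23.9%.

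S100a8 in immature neutrophils ranged from 60143.5 to 148764 CPM with a median of 137515 CPM (125942 ± 29930 CPM, SD, n = 8). The lowest library was WT control, and the other 7 lay between 106549 and 148764 CPM. In mature neutrophils, gated on genes of the late stage such as Cxcr2 and Il1r2, S100a8 ranged from 36419 to 107589 CPM (median 88375 CPM), again lowest in WT control. Neutrophil precursors, gated on azurophil granule genes, had between 9769 and 47801.5 CPM (median 13111 CPM, 7 libraries), below the immature gate in each library. The proliferation gene Mki67 was at 126.8 to 372 CPM in precursors, 22.1 to 177 CPM in immature and 0 to 39.8 CPM in mature neutrophils, except for 247 CPM in the mature gate of WT acute colitis, above the 155 CPM of its immature gate. Il1b was at 5.65 to 22.01 CPM in precursors of 6 libraries and 501 CPM in WT food allergy, 16.4 to 1488 CPM in immature and 6043 to 12290 CPM in mature neutrophils.

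S100a9, the larger subunit of calprotectin, ranged from 112946 to 168798 CPM in immature neutrophils (median 153043 CPM), from 55503 to 131007 CPM in mature neutrophils and from 10531 to 63992 CPM in precursors. The precursor and immature levels did not overlap over libraries for either gene. From precursors to immature neutrophils, S100a8 was higher by 2.85 ± 1.05 and S100a9 by 2.92 ± 1.11 on the log2 scale (SD over 7 libraries, two-sided exact sign-flip permutation test, adjusted p = 0.0363 for each over all genes and comparisons). From immature to mature neutrophils, S100a8 fell by 0.67 and S100a9 fell by 0.62 on the log2 scale in 8 of 8 libraries (exact permutation test, adjusted p = 0.0242). With 8 libraries the smallest unadjusted p is 0.00781 and with 7 it is 0.0156, so these tests reached the smallest value the design allows.

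Of the 7 members, 5 were higher and 2 lower in immature neutrophils than in precursors, with a median log2 difference of 2.17. Over all 4840 genes tested, 19.4% were higher and 60.9% lower, with a median of -0.75. Between mature and immature neutrophils, 3 members were higher and 3 lower (median 0.75), where 24.9% of 3755 genes were higher and 12.9% lower (median 0.12).

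S100a6, also called calcyclin, and S100a11 rose through both steps. S100a6 stood at 388 ± 430.3 CPM in precursors, 6992 ± 1979 CPM in immature and 11489 ± 2462 CPM in mature neutrophils, and was higher by 4.64 and then by 0.75 on the log2 scale. S100a11 stood at 1141 ± 399, 4840 ± 601 and 9295 ± 1128 CPM, higher by 2.17 and then by 0.94. Both genes passed the same permutation test at both steps, so they were highest in the mature gate, where S100a8 and S100a9 were already lower.

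S100a10 and S100a4 went the other way at the first step. S100a10 was at 264 CPM in precursors and at 25.2 CPM in the immature neutrophils of the same libraries, a difference of -3.00 on the log2 scale, and stood at 79.96 CPM in mature neutrophils. S100a4, linked to cell motility, was at 35.7 CPM in precursors and 9.28 CPM in immature neutrophils (-1.25), and its 28.8 CPM in mature neutrophils did not pass the test against the immature gate (0.82, adjusted p = 0.110 by the exact permutation test). S100a13, which exports growth factors that lack a signal peptide, was higher by 0.55 in immature neutrophils and fell by 1.14 in mature ones.

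**Figure D2:**
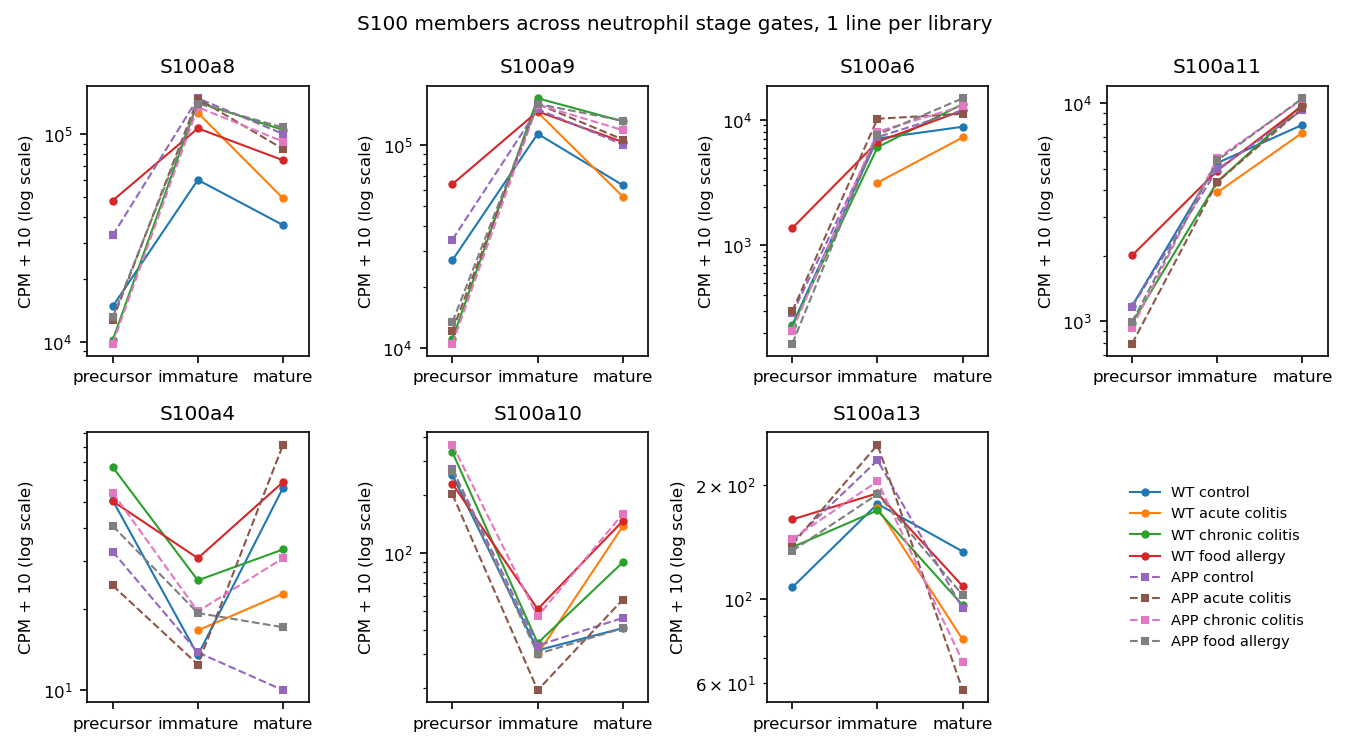
CPM + 10 (log scale) of each member in the precursor, immature and mature neutrophil gates, 1 line per library (solid for WT, dashed for APP). S100a8, S100a9 and S100a13 peak in the immature gate, S100a6 and S100a11 rise at both steps in each line, and S100a10 dips in the immature gate to between 9.5 and 41.2 CPM.

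Genes of several stages differed between libraries in the precursor gate. There, S100a8 was highest in WT food allergy (47801.5 CPM) and next in APP control (32489.5 CPM), and S100a6 (1358 CPM) and S100a11 (1993 CPM) were also highest in WT food allergy, where all other libraries had at most 288 CPM of S100a6 and 1168 CPM of S100a11. The secondary granule gene Camp was at 22159 CPM in precursors of WT food allergy against 3179 to 8196 CPM in the other 6 libraries, and Il1b at 501 CPM against at most 22.01 CPM. Genes of earlier stages were not lower there. Mki67 was also highest in this library, at 372 CPM against 126.8 to 307 CPM, Top2a was at 219 CPM (highest 257 CPM in APP control) and Cebpe at 273 CPM (highest 277 CPM in WT control). The part of cells from later stages in these levels was not tested. S100a8 of precursors also differed within libraries between hashtag groups, as given below.

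The 2 subunits were not captured in a fixed proportion. S100a8 per S100a9 UMI was 0.532 in immature, 0.577 in mature and 0.545 in precursor neutrophils of WT control, and 0.562 in its free RNA. In the other 7 libraries the ratio in immature neutrophils ranged from 0.732 in WT food allergy to 0.999 in APP control. WT control was thus the lowest library in each neutrophil gate and in free RNA. Among granule genes, Camp was lowest in WT control immature neutrophils at 13974 CPM against 17926 to 45215 CPM elsewhere, Ltf was at 11861 CPM within the range of the other libraries (9200 to 12428 CPM), and Lcn2 was highest in WT control at 30730.1 CPM against 17354 to 29052 CPM. Whether the library or the mice set the ratio cannot be told apart.

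**Figure D3:**
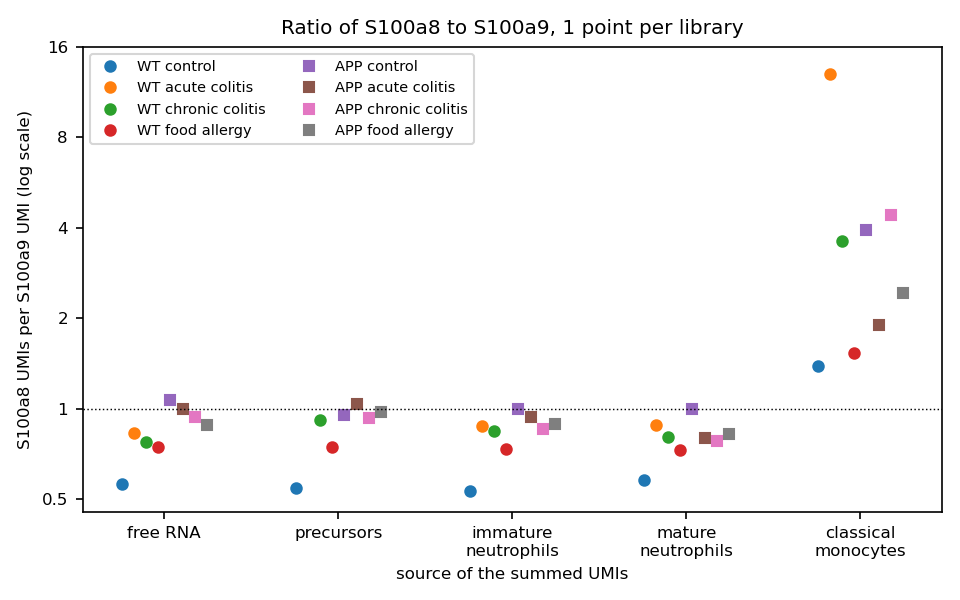
S100a8 UMIs per S100a9 UMI (log scale) in free RNA, the 3 neutrophil gates and classical monocytes, 1 point per library (circles WT, squares APP). WT control is lowest in free RNA and in the neutrophil gates at 0.532 to 0.577, and each classical monocyte point lies above the neutrophil points of its own library.

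In most cell types outside neutrophils, the median library held S100a8 and S100a9 near the level that free RNA gives. Free RNA held S100a8 at between 1744 CPM (WT control) and 36563 CPM (APP acute colitis), and neutrophil granule transcripts in lymphoid cells put its share of their UMIs at between 0.194% and 0.733%. In 20 cell types other than neutrophils and classical monocytes, mean S100a8 ranged from 16.2 to 218 CPM, and observed over expected UMIs had a median over libraries between 0.208 and 2.02. Single libraries lay higher, up to 10.8 times the expected UMIs in ILC2 (824 CPM, WT food allergy), 8.03 times in gamma-delta T cells, 7.99 times in mature B cells and 7.32 times in border macrophages. ILC2 of WT food allergy with exactly 1 hashtag, in 2 sets of groups, held 80.1 CPM (77 cells) and 77.1 CPM (17 cells). Its gamma-delta T cells held 317 and 21.8 CPM in these sets, against 615 CPM in all. Cells with several hashtags were 15.4% of this library and cells with none 13.7%. The part of such cells in these levels was not tested. The test compared CPM in cells with the unscaled CPM of free RNA itself, not with its share of a cell. Of 24 cell types, 2 were higher than this unscaled level in S100a8 and 15 lower. Over all gene and cell type pairs, 19.3% were higher and 20.6% lower (exact permutation test, adjusted p under the threshold of 0.05). The 2 were immature and mature neutrophils, and S100a9 gave the same counts. Precursors did not pass this test, but held between 77.5 and 4368 times the S100a8 UMIs expected from the share of free RNA. CD4 T cells, which should lack both genes, had between 0 and 89.8 CPM of S100a8.

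**Figure D4:**
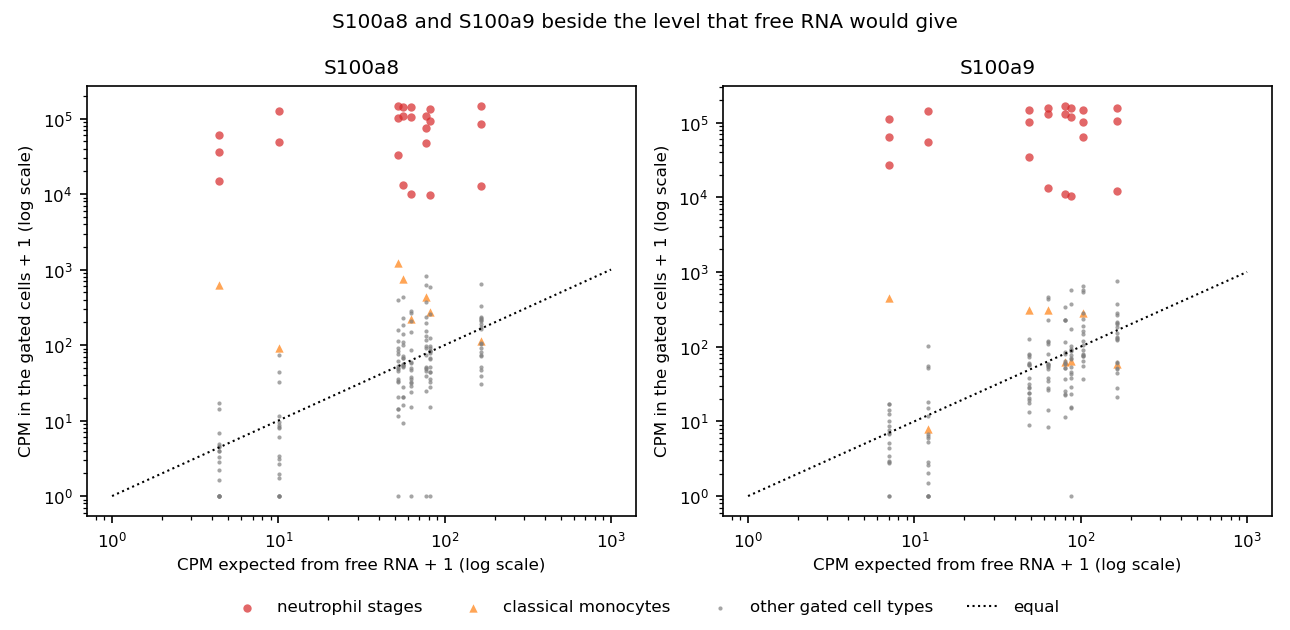
CPM + 1 in gated cells against the CPM + 1 expected from free RNA (both log scales) for S100a8 and S100a9, 1 point per cell type and library. Neutrophil gates (red) lie at 9769 CPM or more, classical monocytes (orange) lie on both sides of the line of equality, and the other types (grey) scatter about it.

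Classical monocytes, gated on genes such as Ly6c2 and Ccr2, had S100a8 between 90.2 CPM (WT acute colitis) and 1230 CPM (APP control), with a median of 351 CPM. In WT the values were 616 CPM in control, 90.2 and 218 CPM in acute and chronic colitis and 428 CPM in food allergy, and in APP 1230, 111, 274 and 749 CPM in the same order. Both control libraries had more than the treated libraries of their genotype, and the genotypes overlapped. The control levels came mostly from hashtag groups high in immediate-early genes of their T cells (described below). High and low groups had 714 and 3.77 CPM in WT control and 2230 and 162 CPM in APP control. In low groups, APP chronic colitis had 600 CPM, above APP control, and in high groups 106 CPM, below it. The part of these groups in the order of libraries was not tested. With gates of 2 markers in place of 3, chronic colitis lay above control in both genotypes, by 1.75 in WT and 1.36 in APP on the log2 scale. Observed over expected UMIs ranged from 0.68 to 182 with a median of 7.73.

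The S100a8 UMIs of classical monocytes sat in few cells. The median cell had 0 S100a8 UMIs in each library, between 4.6% and 18.3% of the cells had at least 5, and the 10% of cells with the most held between 62.9% and 96.9% of the UMIs. The ratio of S100a8 to S100a9 was 1.39 to 13 (median 3.02), above that of immature neutrophils in 8 of 8 libraries. The 13, in WT acute colitis, came from 65 S100a8 and 5 S100a9 UMIs in 87 cells. Of the neutrophil genes, Camp, Ltf, Ngp and Ly6g were at 8.67, 8.3, 18.3 and 2.3 CPM or less in classical monocytes, and Lcn2 ranged from 13.9 to 480 CPM and was highest in WT control and APP control. By hashtag, S100a8 in APP control monocytes was 136, 167, 1362 and 2708 CPM. These groups of 1 library spread over a wider range than the 8 libraries did, and the labels do not give the mice behind them.

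**Figure D5:**
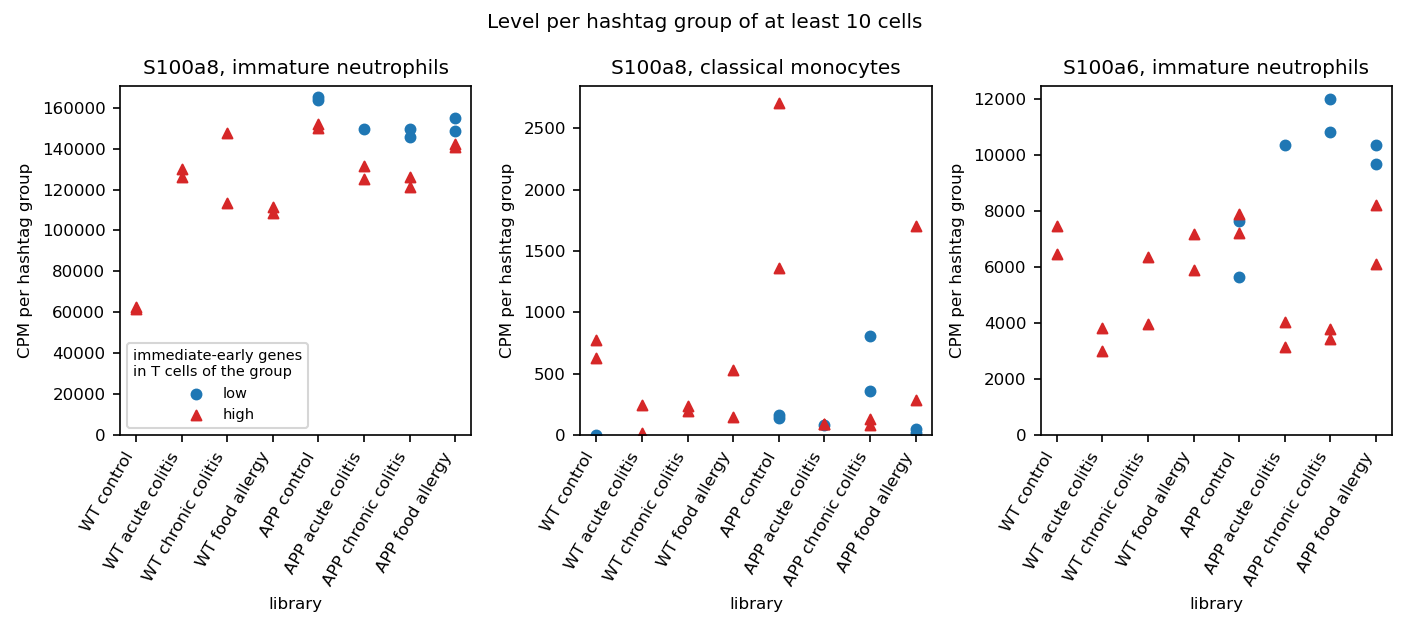
CPM per hashtag group of at least 10 cells for S100a8 in immature neutrophils, S100a8 in classical monocytes and S100a6 in immature neutrophils, by library, with groups low (circles) or high (triangles) in 10 immediate-early genes of their T cells. WT control lies lowest in the first panel at 61549 and 62431 CPM, APP control monocytes spread from 136 to 2708 CPM, and S100a6 spreads from 3435 to 12009.6 CPM within APP chronic colitis.

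S100a6 in immature neutrophils differed as much within libraries as between them. Over libraries it ranged from 3144 CPM in WT acute colitis to 10171 CPM in APP acute colitis (median 7164 CPM). In APP acute colitis the hashtag groups had 3131, 4034 and 10371 CPM, and in APP chronic colitis 3435, 3802, 10807 and 12009.6 CPM. The groups with 10371, 10807 and 12009.6 CPM were low in immediate-early genes of their T cells (Fos, Jun and 8 others, induced when cells are handled), and the others high. In APP control the groups had 5654 to 7888 CPM with both kinds intermixed. The part of cell handling in these levels was not tested.

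Among the remaining leukocytes, gamma-delta T cells held the members at high levels. These cells, gated on genes including Cd163l1 and Tcrg-V6, had S100a4 at 1583 ± 160 CPM, S100a6 at 4221 ± 643 CPM, S100a10 at 2204 ± 350 CPM, S100a11 at 2048 ± 111 CPM and S100a13 at 315 ± 48.8 CPM (SD, n = 8). S100a4 and S100a10 had their highest mean of the 24 types here. WT control was lowest for S100a4 (1250 CPM, next 1493 CPM) and S100a6 (2689 CPM, next 4165 CPM).

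Against CD4 T cells, 4 members were higher in gamma-delta T cells and 0 lower (median log2 difference 1.06), where 18.5% of 6201 genes were higher and 11.8% lower (median 0.06). S100a6 was higher by 1.72, S100a4 by 1.41, S100a11 by 1.06 and S100a10 by 0.46 on the log2 scale, each in 8 of 8 libraries (exact permutation test, adjusted p = 0.0242). S100a13 stood at 315 and 337 CPM, a difference of -0.08 ± 0.21 that did not pass. CD8 T cells had 4 members lower than CD4 T cells and 0 higher (5.83% of all genes higher and 12.9% lower), led by S100a4 at 324 against 604 CPM. NK cells also had 4 members lower and 0 higher (16.1% higher and 11.3% lower), with S100a4 at 263 CPM. Group 2 innate lymphoid cells (ILC2) had 5 lower and 0 higher (13.1% higher and 17% lower), with S100a6 at 301 against 1288 CPM. S100a10 was lower in all 3 of these gates than in CD4 T cells, at 1181, 1319 and 767 against 1590 CPM.

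B cells had less of most members. Against CD4 T cells, mature B cells had 5 members lower and 1 higher (22.8% of all genes higher and 23% lower). S100a4 was at 10.5 CPM and S100a6 at 78.8 CPM, differences of -4.91 and -3.87. The member that was higher was S100a8, at 142 against 46.8 CPM, with a median of 2.02 times the UMIs expected from free RNA. Mature B cells had more S100a4, S100a6, S100a10 and S100a11 than developing B cells (4 higher and 0 lower, against 26.5% and 32.4% of all genes), S100a11 at 371 against 151 CPM and S100a10 at 407 against 301 CPM. Plasma cells had all 7 members lower than mature B cells, but 86.7% of all genes were also lower there and 5.49% higher, with a median of -1.38. Relative to that median, S100a4 (-0.34) and S100a13 (-1.25) were not lower. With 10 CPM added, S100a4 at 10.5 CPM in mature B cells could not have fallen as far as that median.

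Among mononuclear phagocytes, S100a4 and S100a6 were high in classical monocytes and type 2 dendritic cells and low in type 1 dendritic cells. Classical monocytes had S100a4 at 1039 ± 176 CPM and type 2 dendritic cells at 839 ± 110 CPM, against 23.3 CPM in type 1 dendritic cells. S100a6 was at 2485, 1864 and 178 CPM in the same order. Type 2 exceeded type 1 dendritic cells by 4.75 in S100a4, 3.31 in S100a6, 1.13 in S100a10 and 0.42 in S100a13 on the log2 scale (exact permutation test, adjusted p = 0.0242 for each), so 4 members were higher and 0 lower, against 20.7% and 16.8% of all genes. S100a11 was at 1241 and 1272 CPM, a difference of -0.04 ± 0.14.

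Macrophages of the brain borders, gated on genes such as Mrc1 and Pf4, had 5 members lower than classical monocytes and 0 higher, against 26.8% and 20.6% of all genes. S100a4 fell by 3.59 to 86.7 CPM, S100a6 by 3.24 to 295 CPM and S100a11 by 2.64 to 208 CPM on the log2 scale. Type 2 dendritic cells had 4 lower than classical monocytes and 0 higher (33.3% and 11.8% of all genes), with S100a6 lower by 0.41. Non-classical monocytes were compared in 6 libraries, where the smallest p of 0.0312 cannot pass after adjustment and 0 of 5709 genes passed. S100a10 was at 182 CPM there and at 1325 CPM in classical monocytes of the same libraries, lower in 6 of 6. Microglia had S100a6 at 0 to 171 CPM and S100a4 at 0 to 53.3 CPM in gates of few cells.

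Against classical monocytes, mature neutrophils had 4 members higher and 3 lower, against 16.6% and 51.3% of 5060 genes. S100a9 was higher by 9.54 and S100a8 by 7.79, S100a11 by 2.82 and S100a6 by 2.19 on the log2 scale, where the median of all genes was -0.75. S100a4 was at 28.8 against 1039 CPM and S100a10 at 79.96 against 1298 CPM.

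Over all 14 comparisons, 67 of 98 tests of members passed, against 43.1% of 78007 tests over all genes. S100a10 passed in 13 of 14, S100a4 in 12, S100a6, S100a11 and S100a13 in 11 each, S100a8 in 5 and S100a9 in 4. In the order of mean levels, 0 of 161 neighbouring pairs passed the exact permutation test adjusted over members and neighbours, and 33 had an unadjusted p under 0.05. The lowest adjusted p was 0.0629, shared by 20 pairs at the smallest p that 8 libraries allow, so this test had little room to pass. Of the 161 pairs, 9 were also among the 14 comparisons and passed there, such as S100a8 in immature and mature neutrophils and S100a10 in gamma-delta and CD4 T cells.

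S100a13 had the narrowest spread between cell types, from 33.4 CPM in erythroid cells to 337 ± 74.1 CPM in CD4 T cells. Against the unscaled CPM of free RNA, S100a13 was higher in 7 of 24 types and lower in 6. S100a10 was higher in 6 and lower in 11, S100a4 in 5 and 11, S100a6 in 3 and 9, and S100a11 in 3 and 7. These counts do not measure what free RNA adds to cells. Observed over expected UMIs of S100a13 had a median from 46.3 in erythroid cells to 514 in CD4 T cells. For S100a4 the median was 0 in basophils and mast cells. S100a6 and S100a11 UMIs were split between neutrophils (a median of 43.8% for each, 15.2% to 85.0% and 19.1% to 75.6% over libraries) and other cells. S100a4 UMIs were split between monocytes, macrophages and dendritic cells (31.8%) and T cells, NK cells and ILC2 (31.0%), with 0.979% in neutrophils.

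Over the mean levels of 24 cell types, the genes most like S100a8 among 4755 candidates were S100a9 (Pearson r = 0.99), Wfdc21 (0.99) and B230208H11Rik (0.96). For S100a6 they were S100a11 (0.82), Anxa2 (0.76) and Lasp1 (0.74), and for S100a11 Anxa2 (0.88), Cnn2 (0.84) and Actg1 (0.83). For S100a4 they were Gpr132 (0.80), Atp2b1 (0.78) and Lfng (0.75), for S100a10 Esyt1 (0.85), Rwdd1 (0.81) and Fam189b (0.79), and for S100a13 Pdcd6ip (0.84), Rnf166 (0.84) and Ppp1r12a (0.83). S100a8 and S100a10 had r = -0.32. These values describe 24 types that share libraries and depth.

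Of 9 other S100 genes (S100a2 was not on the list), S100a1, which serves calcium handling in muscle, S100a16 and S100b were highest in gated fibroblasts, at 299, 278 and 187 CPM. S100a16 and S100b did not exceed a mean of 2.90 CPM in any other type. S100a1 was at 109 CPM in neutrophil precursors and lower in immature neutrophils (-1.64) and again in mature ones (-1.30), and 0 to 1 of the 9 genes passed in each direction in any comparison.

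Annexins, membrane proteins that S100 dimers bind, followed the members only in part. Of 5 annexin genes, 3 were higher and 1 lower in immature neutrophils than in precursors (median log2 difference 1.96), where 19.4% of all genes were higher and 60.9% lower. Anxa1, a partner of S100A11, was at 1372 CPM in precursors, 5591 CPM in immature and 1241 CPM in mature neutrophils, so it fell by 2.24 at the step where S100a11 rose. Anxa2, the partner of S100A10, was at 1364 and 1657 CPM in immature and mature neutrophils, where S100a10 itself was at 24.5 and 79.96 CPM. In gamma-delta T cells, 3 of 5 annexins were higher than in CD4 T cells and 0 lower (18.5% and 11.8% of all genes), with Anxa2 at 443 against 292 CPM.

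Of 8 receptor and adaptor genes of released alarmins, 3 were higher and 1 lower in immature neutrophils than in precursors (19.4% and 60.9% of all genes), and the same 3, Cd14, Cd33 and Myd88, were higher again in mature neutrophils with 0 lower (24.9% and 12.9%). Cd14, the co-receptor of TLR4, stood at 149, 941 and 2243 CPM over the stages compared in precursors, immature and mature neutrophils. Tlr4 itself was at 45.3 ± 13.7 CPM in border macrophages, 40.3 ± 19.2 CPM in mature neutrophils and 24.8 ± 13.7 CPM in microglia, and Ager, which encodes the receptor RAGE, did not exceed 1.59 CPM as a mean in any type. In border macrophages 5 of the 8 genes were higher than in classical monocytes and 1 lower, against 20.6% and 26.8% of all genes.

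Between treated and control libraries, 92 of 486 values of members (18.9%) were past 2-fold, against 2.34% of 396123 values over all genes, as a description of single libraries. S100a8 and S100a9 gave 76 of the 92, and 62 of these were higher in the treated library. Of the 76, 60 were in types other than neutrophils and classical monocytes, and S100a8 in free RNA was also higher in 3 of 3 treated libraries of each genotype. The part of free RNA in these values was not tested. Levels of the summed cells do not tell fewer positive cells from less RNA per cell.

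In neutrophils, S100a8 of WT immature cells was at 126545 CPM in acute colitis, 142519 CPM in chronic colitis and 106549 CPM in food allergy against 60143.5 CPM in control, and the first pair was past 2-fold (6.78% of all values of genes in these comparisons were). In APP the treated libraries had 147987, 134743 and 140286 CPM against 148764 CPM in control, none of them past 2-fold (1.19% of all values). S100a9 of WT immature cells stayed within 2-fold, at 144067, 168798 and 145473 against 112946 CPM. In APP precursors S100a8 was at 12692, 9769 and 13111 CPM against 32489.5 CPM in control, each past 2-fold where 1.27% of all values were, and Camp was at 3179, 4497 and 4367 against 8196 CPM. S100a8 of APP control was 51433 CPM in hashtag groups high in immediate-early genes (43 cells) and 493 CPM in low groups (21 cells). In high groups, chronic colitis and food allergy had 12303 and 13049 CPM, below control. In low groups they had 3462 and 2108 CPM, above control. Low groups were lower in 4 of 4 libraries with both sets. The part of these groups in the treated values was not tested.

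Apart from S100a8 and S100a9, 16 values were past 2-fold, 13 of them higher in the treated library. S100a4 in ILC2 was at 99.6 CPM in WT control. It was at 386 and 271 CPM in WT acute and chronic colitis and 326 CPM in WT food allergy, each past 2-fold (5.54% of all values). In APP it was at 193 CPM in control against 387, 354 and 258 CPM, none past 2-fold on the scale of log2(CPM + 10) (1.77% of all values). In hashtag groups high in immediate-early genes, WT control and WT food allergy had 85.2 and 357 CPM. APP control had 178 CPM there, against 420, 381 and 274 CPM. In low groups (17 to 34 cells), WT control and WT food allergy had 164 and 92.5 CPM. APP control had 244 CPM there, against 118, 156 and 252 CPM. The part of these groups in the S100a4 values was not tested. S100a6 in ILC2 was at 193 CPM in WT control against 422 and 404 CPM in the WT colitis libraries. Of all libraries it was lowest in APP control at 159 CPM and highest in APP acute colitis at 430.5 CPM. In high groups, WT control and WT food allergy had 166 and 353 CPM, and APP control 149 CPM against 516, 312 and 192 CPM. In low groups, WT control and WT food allergy had 302 and 77.1 CPM, and APP control 201 CPM against 197, 168 and 148 CPM. The part of these groups in the S100a6 values was not tested. S100a6 of immature neutrophils was lower in WT acute colitis (3144 against 7069.8 CPM). S100a11 had 0 of 79 values past 2-fold and S100a10 had 1.

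WT control was the lowest of the 8 libraries in 50 of 103 member and cell type pairs, and in 32 of 71 pairs without S100a8 and S100a9. Over all genes it was the lowest library in 15.3% of 32421 pairs. WT acute colitis was the lowest in 29 of 103, against 17.1% over all genes. WT control was the highest library in 10 of the 103, against 27.4% over all genes.

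Between genotypes, 19 of 119 member and cell type pairs lay one way in all 4 conditions, against 16.1% of 92874 pairs over all genes. With 4 pairs of libraries the exact permutation test could not reach p under 0.05. APP was higher in 15 of the 19, where 6.11% of all pairs were higher in 4 of 4 conditions, and lower in 4, where 9.97% of all pairs were lower. Of those higher in APP, 7 of the 15 were S100a8 or S100a9 outside neutrophils. S100a6 of immature neutrophils was higher in APP in 4 of 4 conditions, by 0.58 ± 0.76 on the log2 scale. It stood at 7259, 10171, 8010 and 7591.5 CPM against 7070, 3144, 6026 and 6666 CPM in WT. The APP acute and chronic colitis values each join hashtag groups that lay far apart, as given above. The part of these groups in the S100a6 difference was not tested. S100a11 of mature neutrophils was higher by 0.20 ± 0.13, and S100a4 of CD4 T cells was lower by 0.43 ± 0.40 (515 against 693 CPM). Within libraries, S100a4 of CD4 T cells differed more between hashtag groups. It was lower in groups low in immediate-early genes in 7 of 7 libraries, with a mean log2 difference of -1.12. The mix of low and high groups differed between libraries, and its part in the genotype difference was not tested.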

How the data were processed

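The authors used 10x Genomics 5′ chemistry, and the deposited matrices came from Cell Ranger (version 6.1.2 per the labels' processing notes, version 4 in the matrix headers) on the mouse genome. The deposited counts are UMI counts per gene and barcode, without normalization, for all barcodes and 4 hashtags.

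Cells were called with an order-of-magnitude cutoff for 3000 expected cells and a test of barcodes of at least 500 UMIs against ambient RNA (1000 simulations, false discovery rate 0.01), and kept where 200 or more genes were detected and mitochondrial UMIs were 5% or less. A cell type needed 3 of 6 markers above what 10% free RNA would give, and cells passing several lists were left out. No other doublet caller was run. CD4 and CD8 T cells were T cells with Cd4 or Cd8 transcripts alone. Counts were summed per library and cell type of at least 10 cells. Differences in log2(CPM + 10), which understate changes of low genes, were tested with a two-sided exact sign-flip permutation test over libraries. The libraries are separate samples, so p-values measure the spread between libraries that also differ in condition. Benjamini-Hochberg adjustment covered all genes of at least 20 CPM and all comparisons, in place of the members alone as first planned. Expected free RNA was scaled by Camp, Ngp, Ltf and Lcn2 in lymphoid cells. Values past 2-fold needed 50 cells in both libraries and 50 UMIs in all. Hashtags were assigned above the lowest point between background and positive counts, with a minimum of 50. Intervals for counting error are not printed. Where a value rests on few UMIs, counting error can be as large as the spread between libraries. The 7 members were named in each cell type, with the 3 most alike genes and the lists of S100, annexin and receptor genes. The members and lists were chosen with earlier results of these data known. Alternatives covered cell calling, gates, filters, free RNA, scaling and libraries. Coordinates are from GENCODE on GRCm38. The script was tested on simulated data. Python 3.11.15, numpy 2.4.6, pandas 2.3.3, scipy 1.17.1 and matplotlib 3.10.9 were used.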

Additional observations from a re-analysis of the deposited data

Results flagged for a closer look

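In groups of 4 to 8 libraries, 14 of 140 member and cell type pairs had a library whose gap to the others passed Dixon's limit. Chance marks about 1 in 20 independent groups, or 7 of 140, but these groups share the same libraries. Pairs that were low in all libraries were left out, and the count was not made over all genes. WT control stood low in 9 of the 14 and high in none. S100a8 in its immature neutrophils was at 60143.5 CPM with the nearest library at 106549 CPM, S100a9 there was at 112946 CPM with the nearest at 144067 CPM, and S100a8 in its mature B cells was at 3.95 CPM with the nearest at 73.0 CPM. Its S100a4 was at 604 CPM in type 2 dendritic cells and 1250.3 CPM in gamma-delta T cells, its S100a6 at 1266 and 2689 CPM in the same types, and its S100a13 at 160.1 CPM in classical monocytes and 141 CPM in ILC2.

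WT food allergy stood high in neutrophil precursors, with S100a6 at 1358 CPM (nearest 288 CPM) and S100a11 at 1993 CPM (nearest 1168 CPM). WT acute colitis stood low in S100a6 of immature neutrophils at 3144 CPM (nearest 6026 CPM) and in S100a11 of developing B cells at 92.4 CPM. S100a10 was at 0 CPM in the 10 migratory dendritic cells of APP chronic colitis, where the nearest library had 79.9 CPM.

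In 5 of 53 member and cell type pairs, all 3 treated libraries of WT lay on the opposite side of control from all 3 of APP. These differences were not tested. The count was not made over all genes, so it does not set the members apart from other genes. The mean log2 difference from control in S100a8 of immature neutrophils was 1.05 in WT and -0.0783 in APP. S100a6 of immature neutrophils went the other way, at -0.49 in WT and 0.23 in APP. S100a6 of classical monocytes was at 0.67 and -0.22, S100a13 of type 1 dendritic cells at 0.38 and -0.25, and S100a11 of plasma cells at -0.66 and 0.31. All 5 WT values rest on the same control library.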

How the results depend on the processing

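Of 67 passing comparisons between cell types, all 67 kept their direction and passed with free RNA subtracted, without S100a8 and S100a9 in the total, with a pseudocount of 1 CPM, with at least 1000 UMIs per cell and with at most 10% mitochondrial UMIs. With 2 markers per gate 61 did, with 4 markers 62, and with exactly 1 hashtag 65. Centred on the median of all genes, chosen after seeing the data, 60 did. That scaling turned S100a4 and S100a13 of plasma against mature B cells to 1.05 and 0.14. S100a4 was near the 10 CPM added to each level, which limits how far it could fall there. With 2 markers, S100a10, mature B cells against developing B cells, turned to -0.00700, and S100a8 of classical monocytes in WT and APP chronic colitis against control turned to 1.75 and 1.36 on the log2 scale. The cause was not tested. Leaving out each library gave 59 to 66 passing comparisons, and 28 to 30 member and cell type pairs higher and 66 to 73 lower than unscaled free RNA. The S100a8 share of UMIs in neutrophils was 80.9% with 2 markers and 95.3% with exactly 1 hashtag. With 2 markers S100a4 in monocytes, macrophages and dendritic cells was at 16.6%, and with 4 markers S100a10 and S100a13 in T cells, NK cells and ILC2 were at 20.1% and 15.6%. Treated values of members past 2-fold were 12.4% within hashtag groups low in immediate-early genes. The share over all genes given above is for whole libraries, so it is no measure for this value.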
